A study of Mus musculus with 4 samples.

Results

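The tissue edge of the primary tumour, beside its outline and beside holes, was compared with the interior in sections of 2 BALB/c mice (mouse A and mouse B). A spot was placed at the edge when at least 1 of its 6 neighbours on the array lay outside the tissue, or when it was 1 step further in, and it was placed in the interior when it lay 5 or more steps from any spot without tissue. Zones were set by position alone, after shallow spots had been left out. The rule gave 1077 edge spots (577 in mouse A and 500 in mouse B) and 2788 interior spots (1310 and 1478), together 3865 of the 9445 spots under tissue in the series. The spots at 3 or 4 steps (582 and 393) were set between the zones, and 127 and 1 spots were left out because they had 200 or fewer genes or did not have all 6 neighbours on the array. Of the spots with 200 or fewer genes, 106 lay in mouse A, 66 of them at 1 or 2 steps, and 0 in mouse B.

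Each mouse gave 1 section of the primary tumour and 1 of the lung, so that n = 2 sections for each tissue. 4T1, a mouse mammary carcinoma line that metastasises to the lung in immunocompetent BALB/c hosts, had been injected into the mammary fat pad of mice aged 8 weeks (100000 cells each), and the tissues were taken at day 28. All 4 sections thus come from tumour-bearing mice and no section of a mouse without tumour was used. The samples were 10x Visium sections of fixed, paraffin-embedded tissue, in which probe pairs against each gene are captured on barcoded spots and counted by unique molecular identifiers (UMIs). Since 1 spot covers more than 1 cell and often a mixture of types, fewer cells of a type and less RNA per cell cannot be told apart in the values below.

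The rim of a solid tumour is where carcinoma cells meet the host tissue, and at a mammary tumour this can be fat, muscle, stroma and the overlying skin. Blood vessels, fibroblasts and entering immune cells are often arranged differently there than in the centre, where oxygen can be low and cells can die. Neutrophils, macrophages and T cells are the immune cells most often described in 4T1 tumours, which secrete the neutrophil growth factor encoded by Csf3. Carcinoma markers were present in both zones of both tumours. Spint2, a protease inhibitor of epithelial cells, was at 407 CPM (UMIs relative to the TMM-scaled total of the sum, the usual counts-per-million unit) at the edge and 405 CPM in the interior of mouse A, and at 385 and 264 in mouse B. Hmga2, a chromatin protein of carcinoma and embryonic cells, was at 352 and 355 in mouse A and at 326 and 307 in mouse B.

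The shape of the edge differed between the sections. In mouse A, 324 edge spots followed the outline of the tissue and the other 253 lay only beside holes inside it, of which a long cleft is the main one, and those 253 held 1570260 of the 2515158 edge UMIs. In mouse B, 413 edge spots followed the outline and 87 lay beside holes. Whether a stretch of the outline is the outer surface of the tumour or a cut through it was not given in the sources used here. The spot barcodes mark array positions, and 2024 of them were under tissue in both tumour sections.

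**Figure D1:**
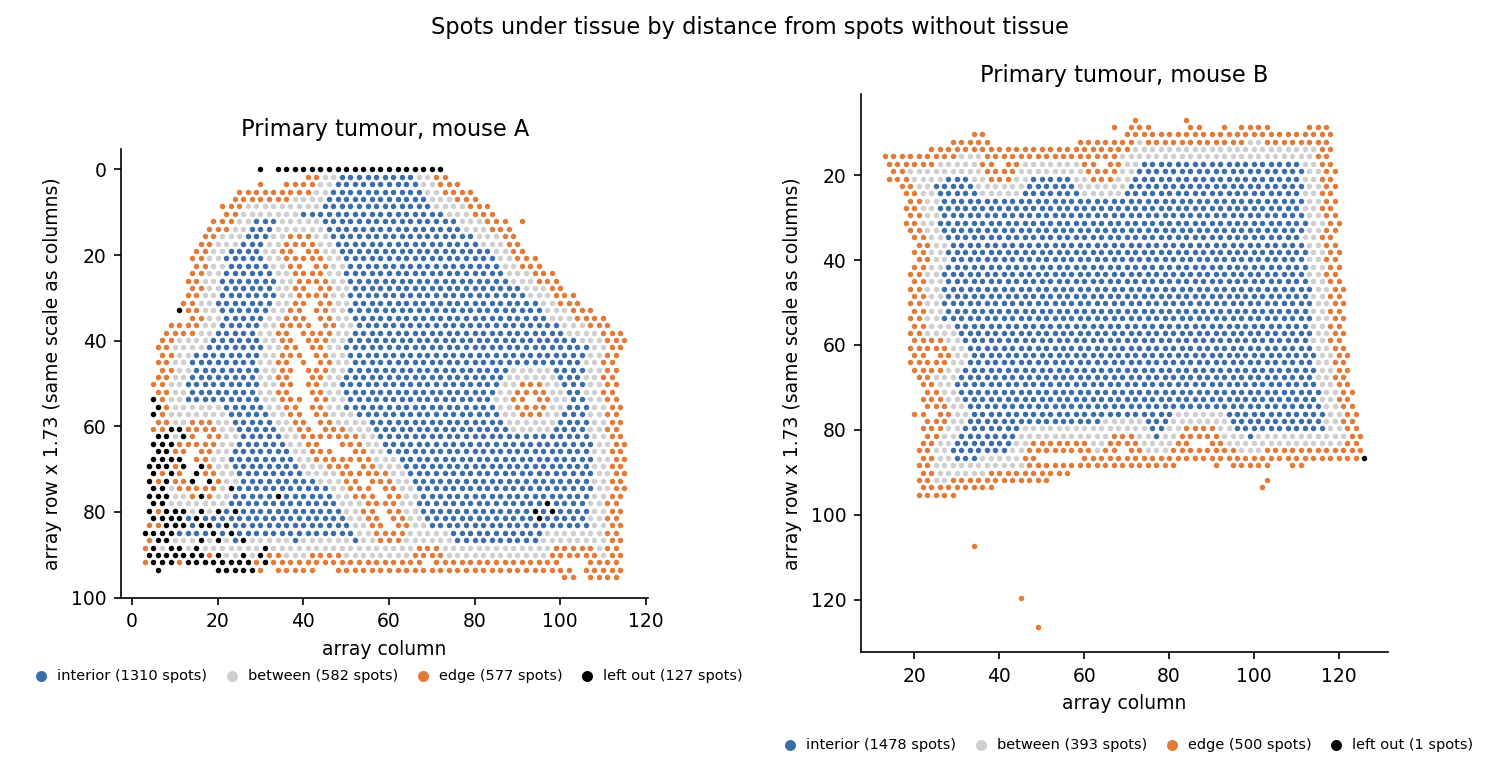
Position of each spot under tissue on the array in the 2 primary tumour sections (array column against array row, drawn to 1 scale), coloured by zone. Orange marks the edge (577 and 500 spots), blue the interior (1310 and 1478), grey the spots between them and black the spots left out; a cleft in mouse A gives edge spots inside the section.

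Depth did not follow the edge in the same way in the 2 tumours. In mouse A the median was 1722 UMIs per spot at the edge and 4475.5 in the interior, and it grew from 1871.5 at the 1st step to 13344 at 12 or more steps. In mouse B the medians were 1957.5 and 1786, with 2098 at the 1st step and 1560.5 at 12 or more. The summed depth was 2515158 UMIs at the edge and 8512453 in the interior of mouse A, and 3489970 and 5265897 in mouse B. The 1178 olfactory and vomeronasal receptor genes, which tumour tissue is not known to use, took 0.106% of UMIs at the edge and 0.0749% in the interior of mouse A, and 0.629% and 1.15% in mouse B. Spots with 3000 or more UMIs made up 39.3% of the edge and 56.9% of the interior of mouse A, and 38.8% and 21.0% in mouse B. In both tumours the zone with fewer UMIs per spot held the larger share of receptor UMIs. The receptor genes of mouse B had, per gene, nearly as many UMIs as the 13 B and plasma cell genes tested (270 at the edge and 721 in the interior). A fall at the edge of mouse B in genes with so few UMIs thus cannot be told from this background. The part of depth in the differences between zones was not tested as such. Thinning to equal depth and a minimum depth are given below where they change a result.

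The first question was which genes differ between the edge and the interior of the primary tumour. UMIs were summed per zone and section, which gives 4 sums, and 17997 genes were tested by edgeR's quasi-likelihood test with the section as a block. At a Benjamini-Hochberg adjusted p of 0.05, 4 genes were called (0.0222% of those tested), of which Lgals7, Krt14 and Krt5 were higher at the edge (0.0167%) and Peg3 was lower (0.00556%). At an unadjusted p of 0.05, 93 genes were higher (0.517%) and 247 lower (1.37%). The model has 1 residual degree of freedom, so its error comes almost wholly from the spread pooled over genes, and a gene can be called when the mice disagree. The 4 called genes are 3 genes of the epidermis and 1 imprinted gene.

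Lgals7 encodes galectin-7, a lectin of stratified epithelia such as the epidermis. Its level was 258 CPM at the edge and 93.4 CPM in the interior of mouse A, and 65.7 and 29.2 CPM in mouse B. Both edge sums thus exceeded the interior sum of the same section, although the edge of mouse B was below the interior of mouse A. The log2 fold change was 1.33 ± 0.25 (SE, n = 2 sections; edgeR adjusted p = 5.62e-04), and the values for the single mice were 1.46 and 1.16. Lgals7 was the only called gene with a mean level of 20 CPM or more that moved the same way in both mice. In spots thinned to 1000 UMIs, described below, mouse B had 25 edge and 62 interior UMIs of Lgals7 and its log2 ratio was 0.27 in place of 1.16, while mouse A had 1.74.

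Krt14 and Krt5, the paired keratins of basal epidermal cells, were called on the section of mouse A. Krt14 was at 82.0 CPM at the edge and 17.9 CPM in the interior of mouse A but at 3.88 and 4.57 CPM in mouse B, where 14 and 28 UMIs were counted. Krt5 was at 34.3 and 6.85 CPM in mouse A and at 0.832 and 0.816 CPM in mouse B, from 3 and 5 UMIs. The fitted log2 fold changes were 1.62 ± 0.26 for Krt14 (edgeR adjusted p = 3.98e-06) and 1.98 ± 0.43 for Krt5 (edgeR adjusted p = 0.0205), while mouse B alone gave -0.21 and 0.02. Krt10, a keratin of suprabasal epidermis, had 125 CPM at the edge and 51.9 CPM in the interior of mouse A, with 27.7 and 32.1 CPM in mouse B, and was not called. Krt14 was called in 12 of 16 alternative settings with a test and Krt5 in 7 of 13, and DESeq2 called neither.

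Epidermal UMIs were concentrated on 1 side of the section of mouse A and reached inwards there. When the section was cut into 8 sectors of 45 degrees around its centre, 162 of its 191 edge UMIs of Krt14 and 435 of its 602 edge UMIs of Lgals7 fell in 1 sector, on 31 edge spots. The interior of that sector held 385 UMIs of Lgals7 and 95 of Krt14 on 228 spots. Over the whole section the share of epidermal UMIs was 0.0613% at the 1st step and 0.0659% at the 4th, and it was lower at each further step, down to 0.00809% at 12 or more. The whole epidermis list had 1591 UMIs at the edge and 1934 in the larger interior. Without scaling, Lgals7 was at 2830 CPM at the edge of that sector and between 15.6 and 209 CPM at the edge of the other 7. Along the outline it was at 565 CPM without scaling, against 43.3 CPM beside holes and 83.3 CPM in the interior. In mouse B these values were 70.3, 26.6 and 34.0 CPM, with 5 UMIs beside holes. The edge beside holes was thus below the interior in mouse A, while the count in mouse B is too low to tell. The 57 edge spots richest in Lgals7 held 90.7% of its edge UMIs in mouse A, and the 50 richest held 73.0% in mouse B. In mouse B the sector with most Lgals7 at its edge (135 of 237 edge UMIs) had 0 edge UMIs of Krt14, a count that allows up to 3, and 1 in its interior. The edge of that sector was also the deepest, with a median of 26002 UMIs per spot. Lgals7 was higher at the edge than in the interior of the same sector in 5 of 8 sectors in each mouse.

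Of the 20 epidermal markers 17 were tested. In mouse A 14 of them had higher values at the edge, against 45.8% of all genes tested. In mouse B 2 of them did, against 45.7%. These 2 were higher in both mice, as were 17% of all genes tested. The median log2 difference of the list was 1.11 in mouse A but -0.36 in mouse B, and their summed level was 683 CPM at the edge and 255 CPM in the interior of mouse A against 163 and 166 CPM in mouse B. Spots with 1 or more UMI per 1000 on Krt5, Krt14, Krt10 and Lgals7 together were 49 at the edge and 62 in the interior of mouse A, and 9 and 13 in mouse B. When they were left out, a setting chosen after the data were seen, no gene was called by edgeR, Peg3 had an adjusted p of 0.0714, and 411 genes had an unadjusted p under 0.05. Since these spots were chosen by 3 of the called genes, the loss of those 3 calls follows from the choice. Krt14 then had a log2 fold change of -1.45 and Lgals7 of 0.41. A planned setting left out only spots with 1% or more of their UMIs on the lists of surrounding tissue, which were 7 edge spots of mouse A, and there Krt14 (1.09, edgeR adjusted p = 0.146) and Krt5 (1.49, edgeR adjusted p = 1.00) were no longer called while Lgals7 was.

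Markers of other host tissue were also summed, although such sums do not measure a share of tissue. The adipocyte markers summed to 200 CPM at the edge and 191 CPM in the interior of mouse A and to 229 and 223 CPM in mouse B. Adipoq, for the fat hormone adiponectin, had 0 UMIs at the edge of mouse A (a count that allows up to 3) and 12 at that of mouse B. Fabp4 of the same list was higher at both edges (25.8 against 17.9 CPM and 38.8 against 27.6 CPM). Of 17 adipocyte genes tested 4 were higher and 6 lower in both mice, against 17% and 25.3% of all genes tested. Skeletal muscle markers summed to 191 and 209 CPM in mouse A and to 284 and 299 CPM in mouse B. Most of both sums came from genes that other cells also use, such as Pnpla2, a lipase, and Eno3, a glycolytic enzyme. Hair follicle markers summed to 12.9 and 10.1 CPM in mouse A and to 53.3 and 77.8 CPM in mouse B. Per gene the hair follicle markers of mouse B had fewer UMIs than the receptor genes. No gene of these lists was called.

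Peg3, an imprinted zinc finger gene, fell at the edge. It was at 7.30 CPM at the edge and 32.8 CPM in the interior of mouse A, and at 9.99 and 13.4 CPM in mouse B, from 17, 249, 36 and 82 UMIs. The log2 fold change was -1.24 ± 0.27 (edgeR adjusted p = 0.0185), or -2.09 for mouse A alone and -0.40 for mouse B alone. In mouse B the receptor genes also took a smaller share at the edge (0.629%) than in the interior (1.15%). The fall of Peg3 in mouse B, on 36 and 82 UMIs, thus cannot be told from background. Peg3 was lower at the edge in 8 of 8 sectors of mouse A and 6 of 8 of mouse B. Its mean level was under the 20 CPM that the rule for named genes asks for, and it is given here because it is the only called gene that was lower. In 9 of 16 alternative settings with a test it was not called, and in each of them it was still lower.

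**Figure D2:**
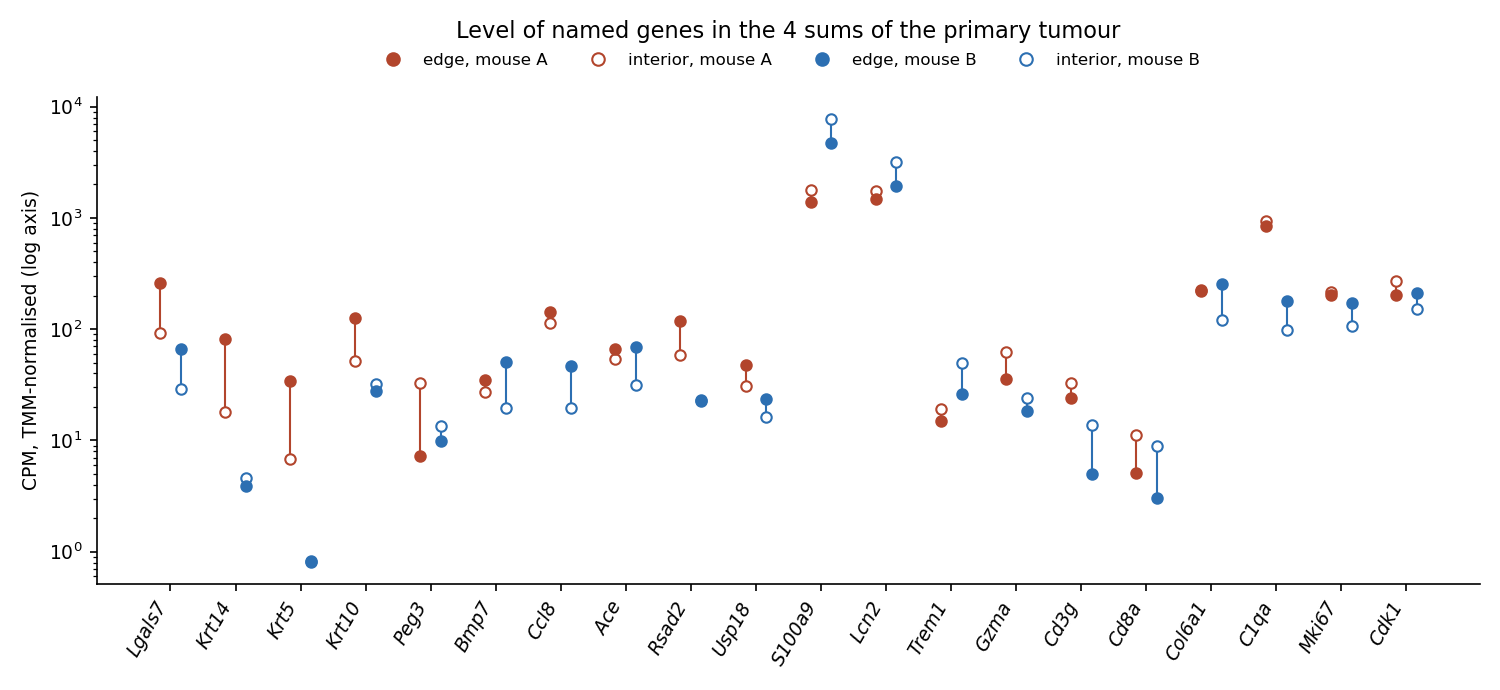
Level of 20 named genes (CPM, TMM-normalised, log axis) in the 4 sums of the primary tumour; filled circles are the edge and open circles the interior, red for mouse A and blue for mouse B, joined within a section. Lgals7 (258 against 93.4 CPM and 65.7 against 29.2 CPM) was higher at the edge in both mice, while in mouse B Krt14 was at 3.88 against 4.57 CPM and Krt5 at 0.832 against 0.816 CPM.

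Over the whole transcriptome the 2 tumours did not share a direction. Of all 17997 genes tested, 17% were higher and 25.3% lower at both edges and 57.4% went opposite ways. Of the 7981 genes with a mean of 20 CPM or more, 29.7% had higher and 10.2% lower values at both edges and 60.1% went opposite ways, mostly lower in mouse A and higher in mouse B (4352 genes). Mouse A had a median of -0.05 over these genes and mouse B one of 0.24, so the count of signs depends on the scaling. With RLE size factors the share with the same direction was 50.0% in place of 39.9%, and among spots with 3000 or more UMIs, where the medians were -0.00041 and 0.03, it was 52.9%. Pearson's r between the mice was 0.037 across these 7981 genes, which share their libraries and are not independent. A log2 difference beyond 1 in both mice was found for 1 of them, Lgals7. Over all genes tested, 1 was higher and 115 were lower by that size in both, and those 115 all had a mean under 20 CPM.

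Gene groups are best read with both mice side by side. In the collagen and matrix list 18 of 20 members went opposite ways, against 60.1% of the genes with a mean of 20 CPM or more, and the median was -0.28 in mouse A but 0.55 in mouse B. Fn1, for the matrix protein fibronectin, was at 2546 CPM at the edge and 2571 CPM in the interior of mouse A and at 1984 and 1529 CPM in mouse B. Col6a1, for a chain of collagen VI, was at 225 and 219 CPM in mouse A and at 255 and 122 CPM in mouse B. Neither was called.

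Cell cycle genes were split in the same way, with 23 of 24 going opposite ways, against the same 60.1%, and medians of -0.34 and 0.43. Mki67, the proliferation marker, was at 203 CPM at the edge and 217 CPM in the interior of mouse A and at 173 and 107 CPM in mouse B. Cdk1, the mitotic kinase, was at 204 and 269 CPM in mouse A and at 211 and 153 CPM in mouse B. In each tumour the zone with the higher values was the one with more UMIs per spot.

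Macrophage markers had medians of -0.11 (mouse A) and 0.53 (mouse B). Of 18 members 5 were higher in both mice, against 17% of all genes tested and 29.7% of those with a mean of 20 CPM or more. Within sectors, the share of UMIs on the macrophage list was lower at the edge in 6 of 8 in each mouse. In mouse B 1 sector, with 60 edge spots and a share of 0.640%, held 1516395 of the 3489970 edge UMIs. C1qa, a subunit of complement C1q made by macrophages, was at 850 CPM at the edge and 942 CPM in the interior of mouse A and at 179 and 98.7 CPM in mouse B. Mrc1, the mannose receptor, was at 125 and 112 CPM in mouse A and at 64.4 and 35.9 CPM in mouse B. Spp1, for osteopontin, was near its interior level in both mice (3376 against 3011 CPM and 3744 against 3380 CPM). Blood endothelial markers had medians of -0.37 and 0.24, with 1 of 17 higher at the edge of mouse A, against 45.8% of all genes tested, and 11 of 17 at that of mouse B, against 45.7%. Plvap, a protein of endothelial pores, was at 91.9 CPM at the edge and 149 CPM in the interior of mouse A and at 67.1 and 53.8 CPM in mouse B. Vwf, for von Willebrand factor, went against most of the list in mouse B (11.2 and 27.4 CPM in mouse A, 9.99 and 12.4 CPM in mouse B). Lymphatic endothelial markers were sparse, with sums of 14.6 and 32.3 CPM in mouse A and of 26.1 and 37.2 CPM in mouse B. Of 5 tested 4 were lower at both edges, against 25.3% of all genes tested and 10.2% of those with a mean of 20 CPM or more. The share among sparser genes is thus above 25.3%. In mouse B the 5 had 94 and 228 UMIs, per gene near the receptor genes, so their fall there cannot be told from background. None of these lists had a called gene.

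**Figure D3:**
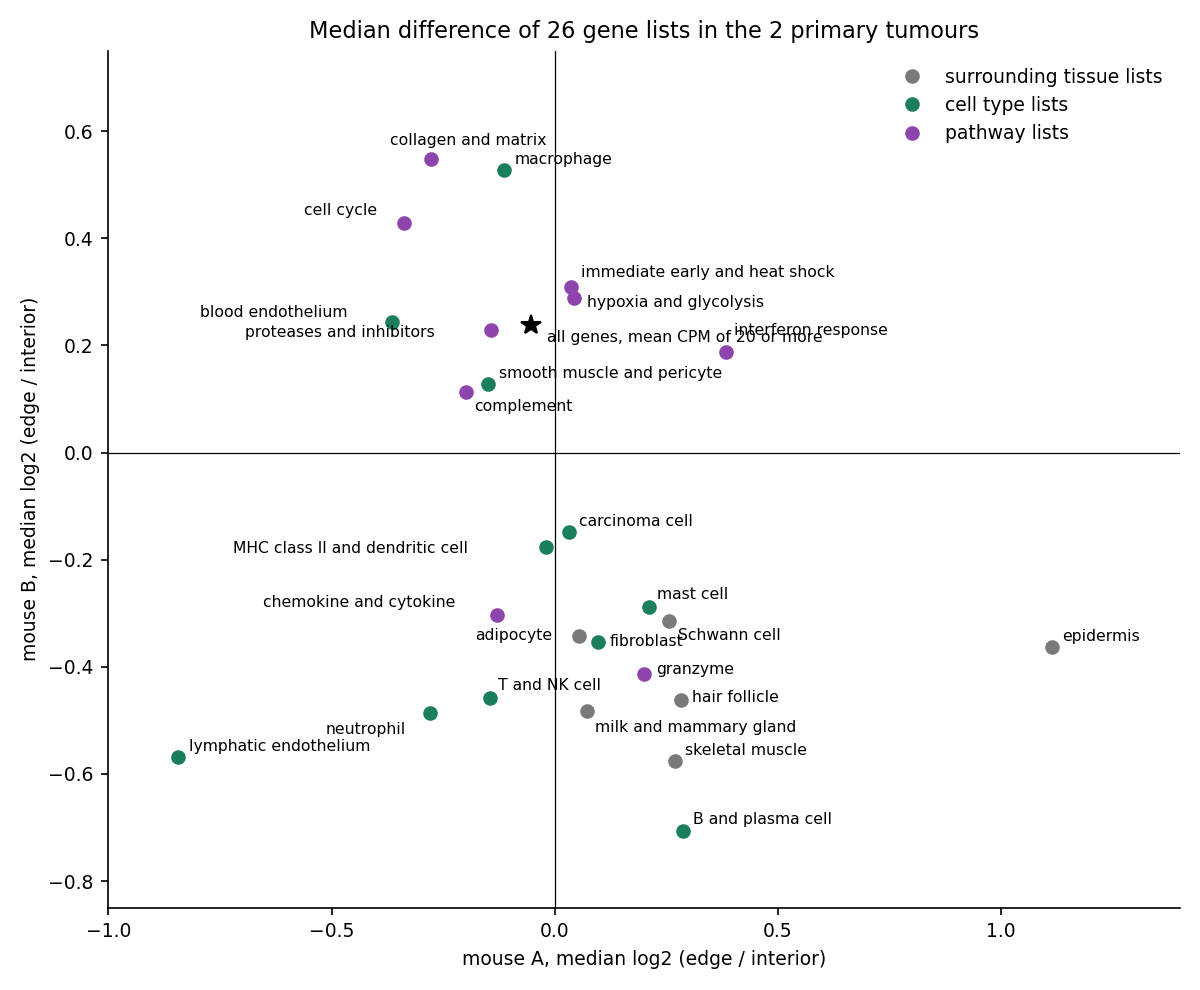
Median log2 ratio of edge to interior for 26 gene lists, mouse A on the horizontal and mouse B on the vertical axis, coloured by kind of list; the star is the median of all genes with a mean of 20 CPM or more (-0.05 and 0.24). The neutrophil and the T and NK cell lists lie below 0 in both mice, the hypoxia and the interferon lists above 0 in both, and the collagen, cell cycle and epidermis lists have opposite signs.

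Neutrophil markers had lower medians at the edge in both mice. Of 18 members tested 13 were lower at the edge in both mice, where 25.3% of all genes tested were (medians -0.28 and -0.49, mouse A first, against -0.03 and -0.07 for all genes tested). No member was called, and 3 had an unadjusted p under 0.05. S100a9, a subunit of the neutrophil protein calprotectin, was at 1397 CPM at the edge and 1793 CPM in the interior of mouse A and at 4705 and 7802 CPM in mouse B. Lcn2, the siderophore-binding lipocalin-2, was at 1482 and 1746 CPM in mouse A and at 1932 and 3175 CPM in mouse B. Trem1, an activating receptor of myeloid cells, was at 15.03 and 19.1 CPM in mouse A and at 26.1 and 49.9 CPM in mouse B. Every one of these edge values was below the interior value of its section.

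The share of UMIs on the neutrophil list also varied with distance from the edge. In mouse A it went from 0.397% at the 1st step to 0.569% at the 5th and back to 0.414% at 12 or more, and in mouse B from 1.09% at the 1st step to 1.63% at the 5th, 1.35% at the 7th, 2.81% at the 11th and 2.59% at 12 or more. The share was lower at the edge than in the interior in 6 of 8 sectors of mouse A and in 7 of 8 of mouse B. Edge spots along the outline of mouse B had 1.03% and those beside holes 2.19%, against 1.91% in the interior. In mouse A the outline had 0.371%, the holes 0.466% and the interior 0.503%. The rim beside a hole was thus closer to the interior than the outline was.

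When each spot was thinned to 1000 UMIs, which gives every spot the same weight and leaves out as too shallow 253 edge and 378 interior spots (mouse A) and 32 and 21 (mouse B), edgeR called 17 genes, 2 higher and 15 lower at the edge. Krt14 and Lgals7 were the higher ones. In this setting 8736 genes had a mean of 20 CPM or more. The 15 lower ones held 5 of the 18 matched members of the neutrophil list. These 5 were S100a8, S100a9, Lcn2, Il1b and Csf3r (the receptor for the growth factor of Csf3). Each of the 5 had 48 or more UMIs in every thinned sum, and genes with fewer UMIs are harder to call. Whether the list was over-represented among the calls was not tested, so the count does not show it. S100a9 then fell by 0.60 on the log2 scale (SE 0.07, edgeR adjusted p = 1.76e-14), or -0.70 for mouse A alone and -0.52 for mouse B alone, and Lcn2 fell by 0.67 (SE 0.08, edgeR adjusted p = 1.21e-12). In the unthinned sums the same genes had log2 fold changes of -0.55 ± 0.35 and -0.48 ± 0.32 and were not called (edgeR adjusted p = 1.00 each). The direction of these genes was the same in both settings, and the call was not.

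The other genes called as lower in the thinned spots were of several kinds. Mmp3, the protease stromelysin-1, fell by 0.55 (SE 0.08), beside -0.27 in the unthinned sums and 0.02 there with holes ignored, and Serpine2, a protease inhibitor, by 0.40 (SE 0.09). C4b, complement component 4, fell by 1.29 (SE 0.31) on 12 and 90 thinned UMIs in mouse A and 10 and 59 in mouse B. The haemoglobin genes Hbb-bs and Hba-a2 were called with -0.83 and -0.70, but Hbb-bs went up in mouse A (0.36) and down in mouse B (-1.01). Il1f9, Wfdc17, Nt5e, Tmsb4x and Fth1 completed the list, and these names, like those of the haemoglobin genes, were chosen after their values were seen.

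**Figure D4:**
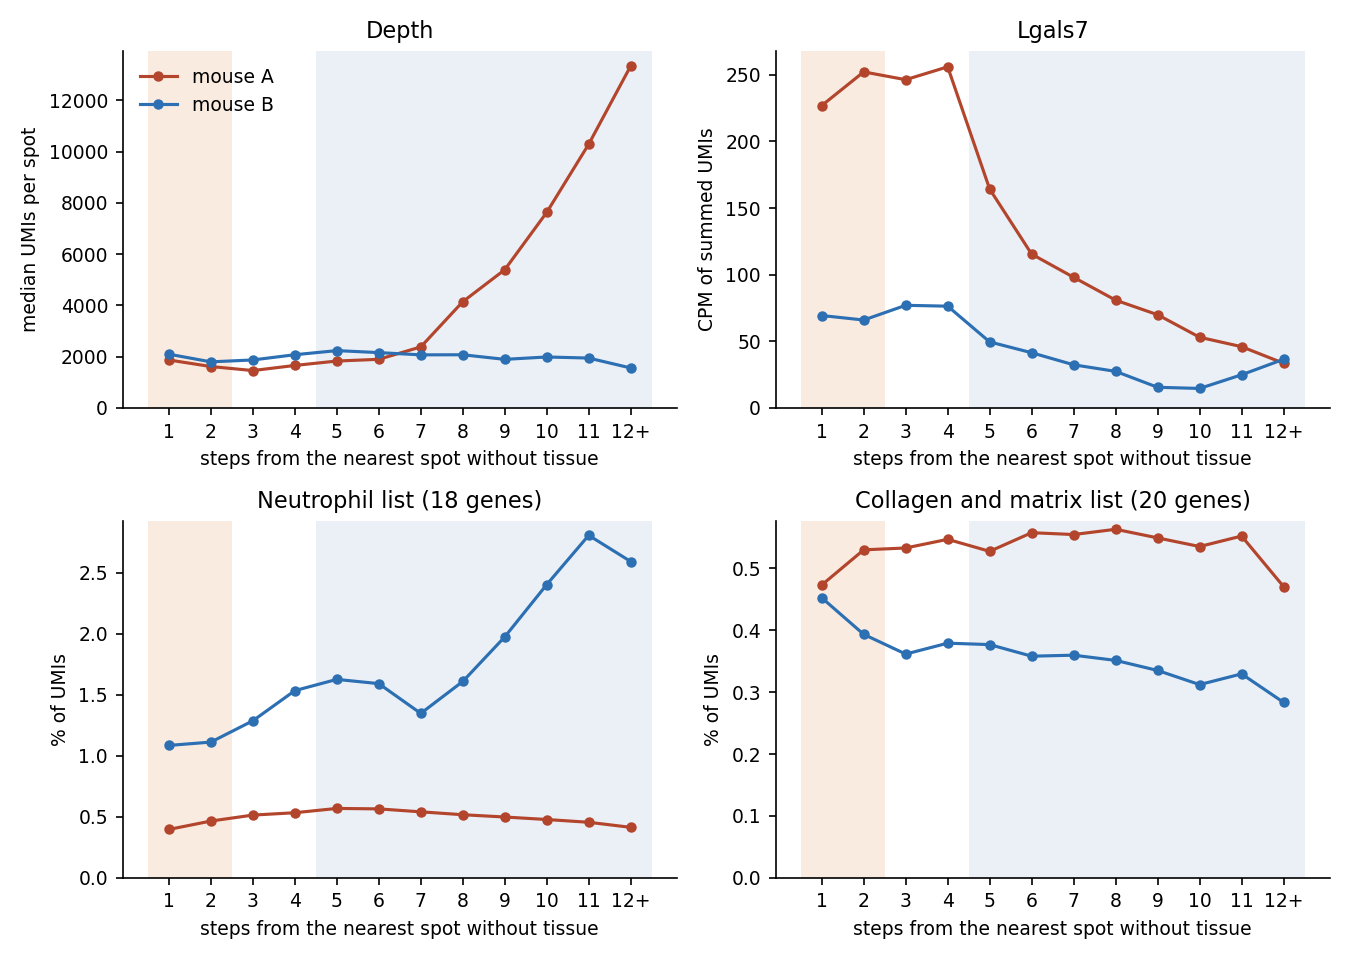
Depth, Lgals7 and the UMI shares of the neutrophil list and of the collagen and matrix list against the number of steps from the nearest spot without tissue, for the primary tumour of mouse A (red) and mouse B (blue); the orange band is the edge and the blue band the interior. Median UMIs per spot were higher inwards in mouse A (1871.5 to 13344) and not in mouse B, Lgals7 was lower beyond the 4th step than within the first 4 in both, and the neutrophil share was higher inwards mostly in mouse B (1.09% at the 1st step, 2.59% at 12 or more).

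T and NK cell genes had medians of -0.15 (mouse A) and -0.46 (mouse B), and 8 of 17 were lower in both mice, against 25.3% of all genes tested. Within sectors, the share of UMIs on the list was lower at the edge in 4 of 8 in mouse A and 5 of 8 in mouse B. Cd3g, a chain of the T cell receptor complex, was at 24.0 CPM at the edge and 32.5 CPM in the interior of mouse A and at 4.99 and 13.7 CPM in mouse B. Of its 18 edge and 84 interior UMIs in mouse B, the edge count was near that of an olfactory or vomeronasal receptor gene. The size of its fall there is thus uncertain. Cd8a, the co-receptor of cytotoxic T cells, was at 5.15 and 11.2 CPM in mouse A and at 3.05 and 8.97 CPM in mouse B. Its 11 and 55 UMIs in mouse B were near those of a receptor gene, so its fall there cannot be told from background. Gzma, a granzyme of killer cells, was at 35.6 and 62.3 CPM in mouse A and at 18.6 and 24.1 CPM in mouse B. All of these edge values were the lower ones, yet none was called, with edgeR adjusted p = 1.00 for each and unadjusted p of 0.00148, 0.00152 and 0.00851. Gzma, with a log2 fold change of -0.61, was called with only spots 5 or more steps from the array border (-1.01, edgeR adjusted p = 0.00402) and had -0.12 with holes ignored and -0.30 in thinned spots. The killer cell genes Gzmb (83.3 against 79.4 CPM and 57.4 against 55.1 CPM) and Prf1 (80.3 against 67.7 CPM and 52.4 against 72.3 CPM) were not lower at the edge of mouse A, and Prf1 was lower at that of mouse B.

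Fibroblast markers had medians of 0.10 (mouse A) and -0.35 (mouse B). Lum, for the matrix proteoglycan lumican, was at 10.3 CPM at the edge and 11.5 CPM in the interior of mouse A and at 2.77 and 7.99 CPM in mouse B. With 10 and 49 UMIs in mouse B it was no higher than a receptor gene, so its fall there cannot be told from background. Mfap4, a microfibril-associated protein, was at 2.15 and 1.45 CPM in mouse A and at 4.44 and 13.4 CPM in mouse B. Its 16 edge UMIs in mouse B (82 in the interior) were near those of a receptor gene, so the size of that fall is uncertain. Gsn, for the actin-severing protein gelsolin, was higher at both edges (52.4 against 47.6 CPM and 79.9 against 44.5 CPM), and the sum of the list in mouse B was 404 CPM at the edge and 378 CPM in the interior. The more abundant Pdgfra, a growth factor receptor of fibroblasts, went against the list medians in both mice (206 and 226 CPM in mouse A, 156 and 105 CPM in mouse B). Of 10 granzyme genes 8 went opposite ways, against 57.4% of all genes tested, among them Gzmf (537 against 467 CPM and 418 against 613 CPM) and Gzmg (812 against 736 CPM and 635 against 811 CPM). B and plasma cell genes summed to 21.0 CPM at the edge and 18.2 CPM in the interior of mouse A and to 74.9 and 118 CPM in mouse B. Per gene the values of mouse B were near those of the receptor genes, so that level and that fall cannot be told from background. Cd74, the invariant chain of MHC class II, was at 3233 and 3278 CPM in mouse A and at 419 and 451 CPM in mouse B, so the zones were alike and the mice were not. Csf3 itself, of the chemokine and cytokine list, was at 786 and 843 CPM in mouse A and at 675 and 878 CPM in mouse B. The members of that list had medians of -0.13 and -0.30, with 9 of 21 lower in both mice, against 25.3% of all genes tested.

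The interferon response and the hypoxia lists had medians above 0 in both mice, where all genes with a mean of 20 CPM or more had -0.05 and 0.24. Of 17 interferon response genes 9 were higher in both mice, with medians of 0.38 and 0.19. The share was 17% for all genes tested and 29.7% for those with a mean of 20 CPM or more. Usp18, which limits interferon signalling, was at 47.2 CPM at the edge and 30.8 CPM in the interior of mouse A and at 23.6 and 16.1 CPM in mouse B. Rsad2, an antiviral enzyme, was at 120 and 58.6 CPM in mouse A but at 23.0 and 22.7 CPM in mouse B. With holes ignored, which leaves the outline as the edge and adds spots near holes to the interior (1826 and 1608 spots in all), the median of this list was -0.05 in place of 0.24, and Rsad2 had a log2 fold change of -0.48 in place of 0.60. None of its genes was called in the main sums, but Rsad2 was when only spots 5 or more steps from the array border were used (0.77, edgeR adjusted p = 0.0467).

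Of 19 hypoxia and glycolysis genes 12 were higher in both mice, against 17% of all genes tested and 29.7% of those with a mean of 20 CPM or more. The medians of 0.04 and 0.29 were close to those of the latter (-0.05 and 0.24). Within sectors, the share of UMIs on the hypoxia list was higher at the edge in 5 of 8 in mouse A. In mouse B it was higher in 3 of 8 and lower in 5. Slc2a1, the glucose transporter GLUT1, was at 1006 CPM at the edge and 999.9 CPM in the interior of mouse A and at 1250 and 1033 CPM in mouse B. Car9, the hypoxia-induced carbonic anhydrase 9, was at 878 and 934 CPM in mouse A and at 864 and 693 CPM in mouse B. In thinned spots the median of the list was -0.06 in place of 0.15. Immediate early and heat shock genes, which respond to stress, had medians of 0.04 and 0.31 and 7 of 12 higher in both mice, against 17% of all genes tested and 29.7% of those with a mean of 20 CPM or more.

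Bmp7, a bone morphogenetic protein, was the uncalled gene closest to the threshold among those with the same direction in both mice. It was at 35.2 CPM at the edge and 27.1 CPM in the interior of mouse A and at 51.0 and 19.6 CPM in mouse B (log2 fold change 0.90 ± 0.22, edgeR adjusted p = 0.207). Ccl8, a chemokine for monocytes, was at 142 and 113 CPM in mouse A and at 47.2 and 19.7 CPM in mouse B. Ace, the angiotensin-converting enzyme, was at 66.5 and 53.8 CPM in mouse A and at 69.6 and 31.6 CPM in mouse B. All 3 genes were higher at both edges, and all 3 were called with RLE size factors (edgeR adjusted p = 0.00325 for Bmp7 and 0.0424 for Ccl8 and for Ace). Bmp7 was also called by limma voom (limma adjusted p = 0.0254). Within sectors, Ccl8 was higher at the edge in 6 of 8 in mouse A but in 3 of 8 in mouse B, where 140 of its 170 edge UMIs fell in 1 sector. Bmp7 was higher in 5 of 8 and 6 of 8, with 128 of its 184 edge UMIs of mouse B in that sector. In spots thinned to 1000 UMIs none of these genes was called, and the log2 fold changes were 0.47 for Bmp7, 0.54 for Ccl8 and -0.17 for Ace, which thus changed sign from 0.72. With only spots 5 or more steps from the array border they were 0.51, 0.31 and 0.42, again uncalled.

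The second question was whether the edge of the primary tumour differs from its interior as the edge of the lung does. Across the 8 sums of the 4 sections 18530 genes were tested for the difference of differences, with the section as a block, and 14 were called (0.0756%), 3 with a higher and 11 with a lower difference in the primary tumour. The 3 on the higher side were Depp1, Ace and Ccl8. Ace is abundant in lung capillaries, and its log2 ratio of edge to interior was 0.30 and 1.13 in the primary tumours and -0.38 and -0.48 in the lungs (difference 1.15 ± 0.27, edgeR adjusted p = 0.0210). Ccl8 had 0.33 and 1.24 in the primary tumours and -0.20 and -0.54 in the lungs (difference 1.13 ± 0.26, edgeR adjusted p = 0.0169). Depp1, a target of FOXO factors, had -0.01 and 1.05 against -1.21 and -0.81 (difference 1.68 ± 0.31, edgeR adjusted p = 2.86e-04).

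On the lower side all 11 genes had a log2 ratio above 0 in the lung of mouse B, from 0.44 to 6.64, and 8 of 11 had one in the lung of mouse A. Reg3g, a secreted antibacterial lectin, was at 622 CPM at the edge and 162 CPM in the interior of the lung of mouse A and at 1113 and 10.7 CPM in that of mouse B, while no tumour sum exceeded 4.14 CPM (difference -4.88 ± 0.57, edgeR adjusted p = 1.58e-13). Bpifb1, of airway secretory cells, was at 126 and 48.6 CPM and at 143 and 8.52 CPM in the lungs, with at most 4.57 CPM in the tumours (difference -3.08 ± 0.48, edgeR adjusted p = 8.55e-07). Lypd2 had a difference of -2.66 ± 0.49 (edgeR adjusted p = 2.86e-04), with log2 ratios of 0.03 and 2.66 in the lungs. Other genes of this side were low at the lung edges too, such as Agr2 (8.46 and 10.3 CPM), which was at 6.36 CPM at the edge and 9.56 CPM in the interior of the tumour of mouse B. These tumour values of Agr2 were near those of a receptor gene in that section and cannot be told from background. Car9 was the called gene of this side with high tumour levels, and its difference of -2.37 ± 0.31 rested on the lung of mouse B, where it was at 234 CPM at the edge and 34.3 CPM in the interior, against 2.82 and 2.63 CPM in the lung of mouse A. When spots were thinned to 1000 UMIs, 15 genes were called, and 3 of the 14 were among them (Reg3g, Bpifb1 and Car9), so that Depp1, Ace and Ccl8 lost their calls. Agr2 and Car9 were singled out after their values were seen.

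**Figure D5:**
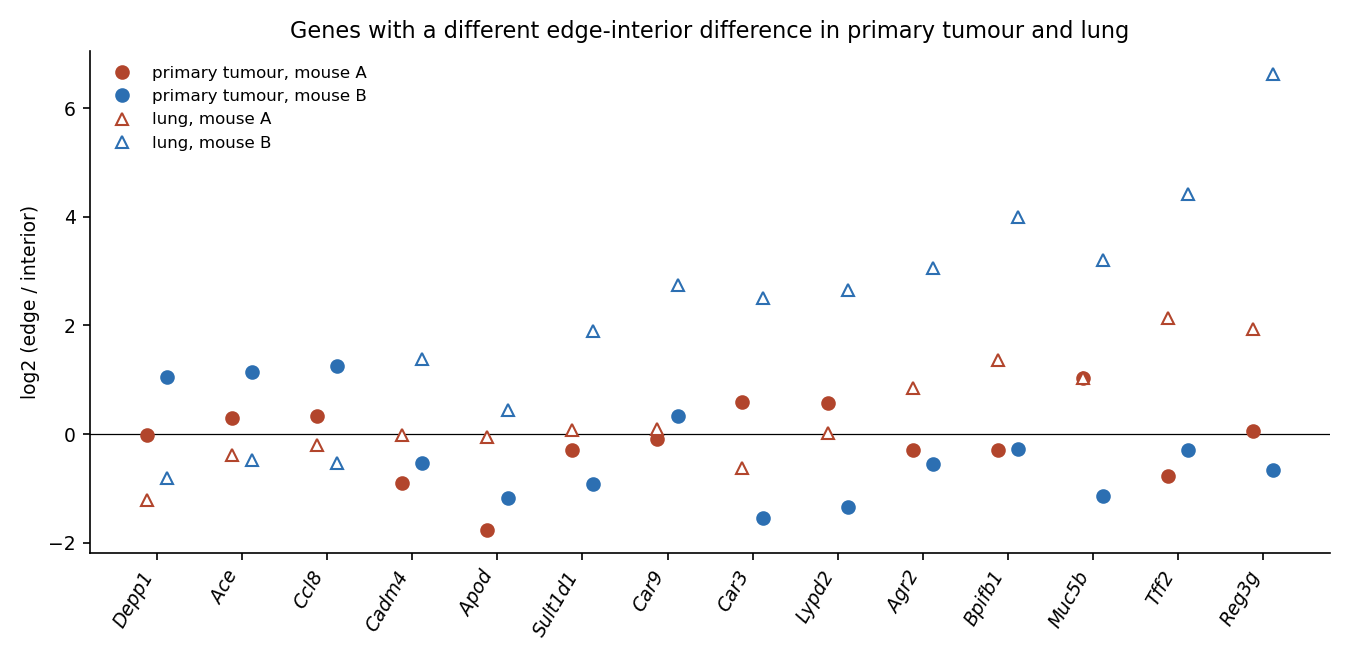
Log2 ratio of edge to interior of the 14 genes whose difference was not the same in primary tumour and lung, in each of the 4 sections (circles for the primary tumour, triangles for the lung, red for mouse A, blue for mouse B), sorted by the difference. Depp1, Ace and Ccl8 lie higher in the primary tumours, and for Reg3g the ratio reaches 6.64 in the lung of mouse B.

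Neutrophil markers were lower at the edge of the lung too, with medians of -0.56 (mouse A) and -0.70 (mouse B) over the same 18 genes, beside -0.28 and -0.48 in the primary tumours when scaled with the lung. All genes tested had medians of -0.25 and -0.13 in the lungs and -0.03 and -0.08 in the primary tumours. No member of the list was called for the difference of differences. T and NK cell genes had medians of -0.39 and -0.42 in the lungs, beside -0.15 and -0.40 in the primary tumours. The values for the 2 tissues come from the same 2 mice and their lung and tumour edges have different depths, with a median of 5183 and 9080 UMIs per edge spot in the lungs.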

How the data were processed

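The authors deposited raw UMI counts of 19465 genes per spot, and the place of each spot on the array, from Space Ranger 2.0.0 (file headers) with genome build mm10 (submitters' processing notes). Spots with 200 or fewer genes and spots without 6 listed neighbours were left out, and counts were summed per section and zone. The sums were tested in R 4.3.3 with edgeR 4.0.16 (TMM, filterByExpr, quasi-likelihood test, Benjamini-Hochberg adjustment over all genes tested, threshold 0.05), two-sided. CPM values carry TMM factors unless said to be without scaling, and shares in percent of UMIs carry none. The log2 ratio of 1 mouse has 0.5 CPM added to both levels. SE is the log2 fold change divided by the root of F.

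The section was a block in the main model because both zones come from 1 animal; same-section deviations had a correlation of 0.792 over 7981 genes. The model was tested on simulated data first. For edge against interior it recovered 85% of 100 genes changed 2-fold and 100% of 100 changed 4-fold. It also called 8 unchanged genes beside these changed ones. The adjusted threshold is looser where many genes are changed. The number 8 thus cannot be carried over to the data, where 4 genes were called. For primary tumour less lung it recovered 52% and 99% and called 3 unchanged genes. DESeq2 1.42.0, limma 3.58.1 and 16 other alternative settings were tried (14 planned, 4 added after the data were seen). Named genes were those called, the 10 on each side with the smallest p (same direction in both mice, mean of 20 CPM or more, filled with uncalled genes), 2 with the highest level and 2 with the largest difference of each list, and 3 per side of the comparison with lung. Rule, members and lists were chosen with earlier results of these data known. The lists held 26 groups, and genes of a list were matched by symbol. No cell types were estimated per spot. Python 3.11.15, numpy 2.4.6, scipy 1.17.1 and pandas 2.3.3 were used. The section is the replicate (n = 2), and with 1 residual degree of freedom the error behind a p-value is mostly the spread pooled over genes.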

Additional observations from a re-analysis of the deposited data

Results flagged for a closer look

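The 14 genes whose edge-interior difference was not the same in primary tumour and lung by the interaction test (edgeR adjusted p under 0.05) are given here with the log2 difference, primary tumour less lung. Higher in the primary tumour were Depp1 (1.68), Ace (1.15) and Ccl8 (1.13). Lower were Reg3g (-4.88), Tff2 (-4.65), Muc5b (-3.08), Bpifb1 (-3.08), Agr2 (-2.93), Lypd2 (-2.66), Car3 (-2.55), Car9 (-2.37), Sult1d1 (-2.09), Apod (-1.85) and Cadm4 (-1.72). Of these, Car9 alone was called when only spots with 3000 or more UMIs were used. Groups of 2 sections are too small for a search for outlying samples.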

How the results depend on the processing

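The count of genes called between edge and interior was 4 and became 0 with no replicate block (6 genes at an unadjusted p under 0.05), 7 with RLE size factors and 1 with DESeq2 (Lgals7). It was 2 with an edge of 1 step, 2 with an interior of 8 or more steps and 7 at 5 steps from the array border. Thinning to 1000 UMIs gave 17, leaving out spots of surrounding tissue 2, spots of 3000 or more UMIs 2 and leaving out epidermis spots 0. With holes ignored it was 5, without Peg3 and with Calm4 and Krtdap. With limma voom it was also 5, without Peg3 and with Bmp7 and Col17a1. The count for primary tumour less lung was 14 and became 0 with no replicate block (3 at an unadjusted p under 0.05), 61 with RLE size factors (6 higher, 55 lower), 0 with DESeq2 (140 at an unadjusted p under 0.05), 61 at 5 steps from the array border and 1 with spots of 3000 or more UMIs. Thinning gave 15, of which 3 were shared with the 14, and voom gave 14, of which 8 were shared. The split of the 14, 3 higher and 11 lower, was 31 and 30 at the array border setting. The section pairs the zones, so the fit without the block leaves the spread between mice in the error. The cause of the other changes was not tested.

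Lgals7 stayed called in every setting with a test but no replicate block and without epidermis spots (0.41). Krt14 was -0.21 without replicate 1 (mouse A), 2.16 without replicate 2 and -1.45 without epidermis spots. Among 2044 values of named genes over all settings, 2 of Krt14, the negative ones, and 136 of uncalled genes had the other sign, among them Ace (-0.17 with thinning), Rsad2 (-0.48) and Mmp3 (0.02, both with holes ignored). Peg3 lost its call with no replicate block, DESeq2, an edge of 1 step, an interior of 8 or more steps, holes ignored (-0.77), thinning, voom, 3000 or more UMIs and without epidermis spots. Without mouse A or mouse B no test is left. Depth limits genes with few UMIs, such as Krt5 with 3 and 5 in mouse B.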
